A study of Mus musculus with 6 samples.

Results

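Mitochondrial ribosomal proteins are encoded in the nucleus and carry the symbols Mrpl (large subunit) and Mrps (small subunit). They are made in the cytosol, imported into mitochondria and assembled there with the ribosomal RNAs encoded by mitochondrial DNA. The mitochondrial ribosome translates the few respiratory chain subunits that mitochondrial DNA encodes, and in T cells its synthesis is known to rise with activation. Some of its proteins descend from bacterial ribosomal proteins, and the others are specific to mitochondria.

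The members were taken by symbol, as every gene of the deposited count table named Mrpl or Mrps followed by a digit, without the rows named as pseudogenes. This gave 78 of 54532 listed genes, 49 for the large and 29 for the small subunit. The libraries are poly(A)-selected RNA-seq of splenic CD4+ T cells from wild-type C57BL/6J mice kept under SPF conditions, all with colitis from dextran sulfate sodium (DSS) in drinking water. In the Akk group 3 libraries came from mice given the gut bacterium Akkermansia muciniphila daily, and in the Ctrl group 3 libraries came from mice given PBS, its vehicle, so every library comes from a DSS-treated mouse. The labels give no age, sex or pooling of the animals, no way of isolating the cells and no group without DSS. The question posed by the design is which transcripts differ between splenic CD4+ T cells of colitic mice with and without the bacterium.

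Total counts per library ran from 15032257 to 16677923. The labels describe the 3 libraries of each group as biological replicates and give all 6 the batch label 1. The description lines name CD4 for the libraries numbered 1, CD5 for those numbered 2 and CD6 for those numbered 3, whereas the cell type entry names CD4 for all 6. The defining markers of CD4+ T cells were present in every library, with Cd4 at 688 ± 31.9 CPM in Ctrl and 884 ± 29.6 CPM in Akk (SD, n = 3 each; CPM is counts scaled to library size with TMM factors). Of the 12 CD4+ T cell markers 5 rose in Akk (Zbtb7b, Cd4, Lck, Cd5 and Cd3e) and the costimulatory receptor Cd28 fell (log2 fold change -0.87 ± 0.12 SE, adjusted p = 0.0016, edgeR). Their summed level was 5223–5376 CPM per library in Ctrl and 5634–5999 CPM in Akk. Markers of other cell types moved with the groups too. All 15 B cell markers rose in Akk, from a summed 1183–1196 CPM per library in Ctrl to 1832–2200 CPM, and both CD8 markers, 5 of 8 NK markers and 3 of 8 tested myeloid markers rose too. Summed CD8 markers went from 19.1–20.2 to 61.3–93.4 CPM, NK markers from 41.0–53.2 to 66.6–79.0 CPM and myeloid markers from 194–225 to 311–373 CPM. Of 7 erythroid markers 1 fell (3 by DESeq2), and their sum was 451–1031 CPM in Ctrl and 235–444 CPM in Akk. No gene of these lists was at 0 in all libraries, and the part of these cells in the results below was not tested. In bulk RNA, fewer cells of a type and less RNA per cell cannot be told apart.

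The transcripts of the mitochondrial ribosome were close to level between the groups. Of the 77 members tested, 1 was higher (Mrpl38) and 3 were lower (Mrpl52, Mrps9 and Mrps30) in Akk at an adjusted p below 0.05 (edgeR quasi-likelihood test, p-values adjusted by Benjamini-Hochberg over the 15138 genes that passed the filter on low counts). The 4 members are 5.19% of those tested, where 15.6% of all genes tested passed the same threshold, 7.32% as higher and 8.28% as lower, and 17.3% of the 7001 genes in the members' own range of mean CPM did. At an unadjusted p below 0.05 there were 14 members, 6 higher and 8 lower, against 30.1% of all genes. Each of the 4 calls was lost in some of the fits that left out 1 library, which called between 0 and 5 members. The same fits called between 7.28% and 16.4% of all genes they tested.

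Every log2 fold change of a member lay between -0.52 and 0.38, with a median of -0.08, against a median of -0.01 over all genes tested. The middle part of the members, between the quartiles, spanned -0.16 to 0.07. Of 77 members 52 had an estimate below 0 (67.5%) and 25 above, where 51.0% of all genes lay below 0. For 62 members (80.5%) the 95% confidence interval of the change lay wholly within 1.5-fold either way, as it did for 68.5% of the genes in the same CPM range and 49.0% of all genes. The other 15 had intervals that reached beyond 1.5-fold, so a change of that size was not excluded for them at this depth. The 6 libraries of 21 members fell into groups that did not overlap, 9 with Akk higher and 12 with Akk lower, which is 27.3% of the members against 34.9% of all genes (17.1% with Akk higher and 17.8% with Akk lower).

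**Figure D1:**
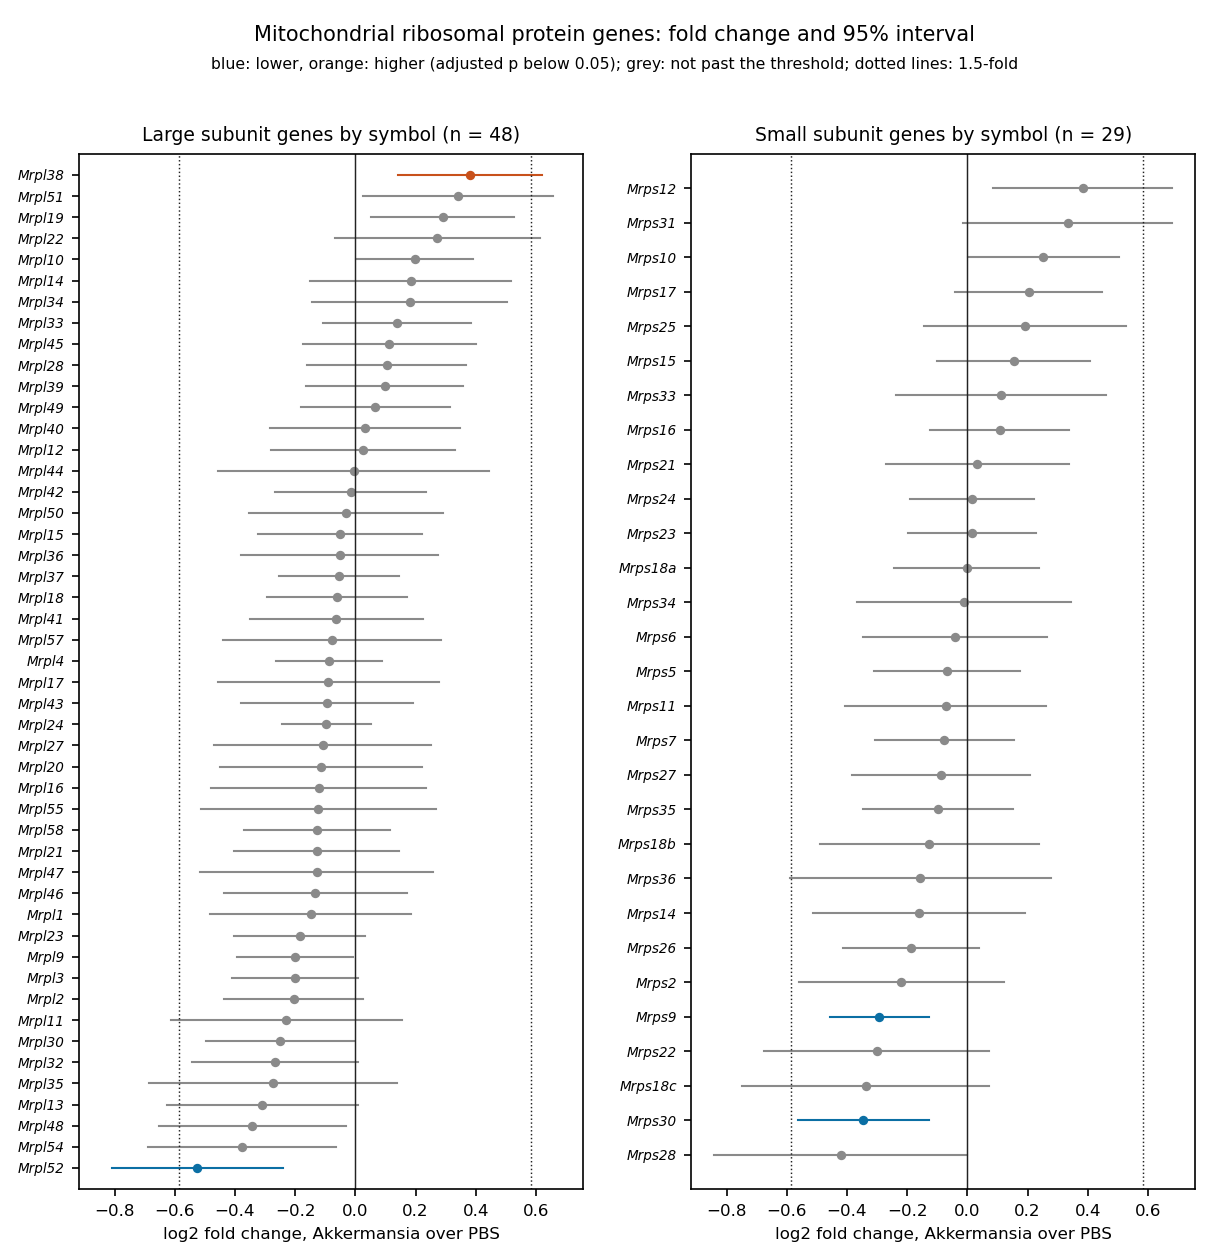
Log2 fold change of each tested member, Akk over Ctrl (PBS), with its 95% confidence interval, split by subunit. The 4 members past an adjusted p of 0.05 are marked; most of the 77 intervals cross 0, and 62 of them lie within the 1.5-fold lines.

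The subunits had medians close to each other, and their difference was described without a test. Among the 48 tested large subunit members 1 rose and 1 fell (4.17%), 34 had estimates below 0 and the median log2 fold change was -0.09. Among the 29 small subunit members 2 fell (6.9%), 18 had estimates below 0 and the median was -0.07. Of all genes tested 15.6% were called. The groups did not overlap for 14 large subunit members (29.2%), 5 higher and 9 lower in Akk. They did not overlap for 7 small subunit members (24.1%), 4 higher and 3 lower, and for 34.9% of all genes tested.

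Symbols and structure differ for 3 members. Mrps18a and Mrps30 carry small subunit symbols but sit in the large subunit of the mammalian mitochondrial ribosome, and Mrps36 is now known as a component of the oxoglutarate dehydrogenase complex. Sorted by structure, 50 tested large subunit members had a median of -0.09, with 1 higher and 2 lower (6%). The 26 small subunit members had a median of -0.05, with 1 lower (3.85%), beside the 15.6% of all genes called. Mrps18a was level at 19.3 ± 0.337 CPM in Ctrl and 19.3 ± 1.30 CPM in Akk. Its paralogues in the small subunit, Mrps18b (log2 fold change -0.13 ± 0.17 SE) and Mrps18c (-0.34 ± 0.19), did not pass the test (adjusted p = 0.667 and 0.257, edgeR). Mrps36 was at 7.999 CPM in Ctrl and 7.18 CPM in Akk (log2 fold change -0.16 ± 0.20, adjusted p = 0.655).

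The members with bacterial homologues and those specific to mitochondria were also near level. Of 46 members with a bacterial homologue 1 fell (Mrps9, 2.17%) and the median log2 fold change was -0.09. Of 30 tested mitochondria-specific members 1 rose (Mrpl38), 2 fell (Mrpl52 and Mrps30) and the median was -0.04. That is 10% called, where 15.6% of all genes were. None of the 30 large subunit proteins with bacterial homologues passed the test by edgeR, DESeq2 or limma-voom, 4 had an unadjusted p below 0.05, and their median was -0.11.

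The summed level of the large subunit members was 1158, 1182 and 1044 CPM in Ctrl libraries 1 to 3 and 1052, 1108 and 1064 CPM in Akk libraries 1 to 3. Ctrl 2 was the highest and Ctrl 3 the lowest of the 6, so the groups overlapped and the spread within Ctrl covered the Akk values. The sum was 1128 ± 73.8 CPM in Ctrl and 1075 ± 29.5 CPM in Akk (SD, n = 3 each), a difference of -4.71%. The small subunit members summed to 613, 625 and 603 CPM in Ctrl and 581, 601 and 590 CPM in Akk. These values did not overlap, but the highest Akk and the lowest Ctrl library, 601.4 and 603.3 CPM, were closer to each other than the libraries within either group. The difference was -3.69%, from 613.7 ± 10.6 to 591.0 ± 9.99 CPM.

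The ratio of summed large to small subunit CPM was 1.89, 1.89 and 1.73 in Ctrl and 1.81, 1.84 and 1.80 in Akk. All 3 Akk ratios lay inside the Ctrl range. The mean ratio was 1.84 ± 0.0928 in Ctrl and 1.82 ± 0.0215 in Akk, so the difference was smaller than the spread between Ctrl libraries. With the subunits taken by structure the ratios were 2.19, 2.24 and 2.04 in Ctrl and 2.10, 2.11 and 2.09 in Akk. The Akk values again lay inside the Ctrl range, and the difference of the mean log2 ratio was -0.0382, against -0.0137 by symbol. With summed FPKM, which corrects for gene length, the ratios ran from 2.03 to 2.19 in Ctrl and from 2.04 to 2.10 in Akk and again overlapped. No p-value is given for these sums, since the members were chosen with results of these data known.

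**Figure D2:**
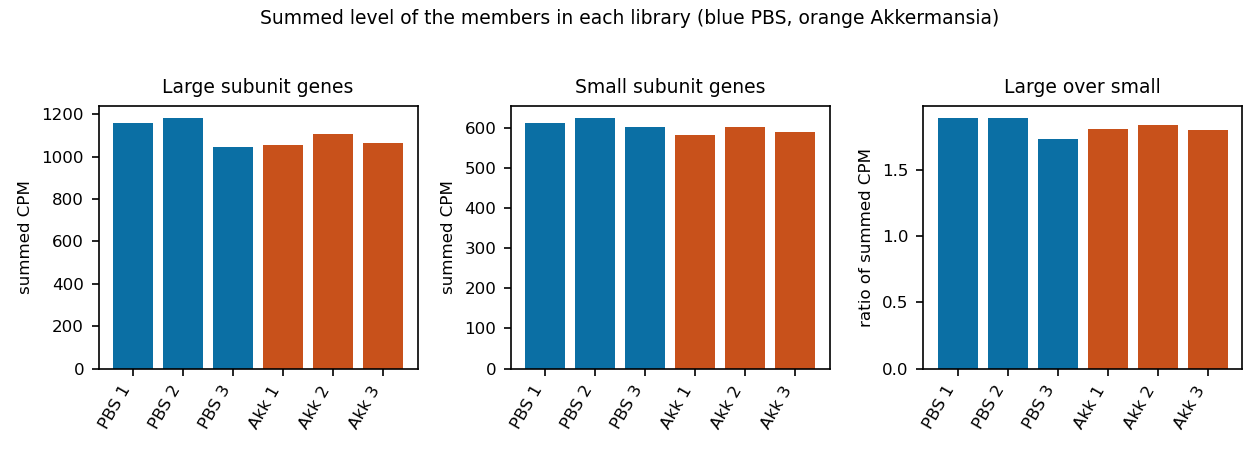
Bars give the summed CPM of the large and of the small subunit members and the ratio of these sums in each of the 6 libraries (blue Ctrl, written PBS, and orange Akk). Ctrl 3 has the lowest large subunit sum and the lowest ratio, 1.73, and the 3 Akk ratios lie between 1.80 and 1.84.

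Single libraries stood apart in how many members they held at the extreme. Ctrl 2 had the highest CPM of the 6 libraries for 31 of 77 members and Ctrl 1 for 17, whereas Ctrl 3 had the highest for 3. The lowest value was in Ctrl 3 and in Akk 1 for 21 members each. Over all genes tested, each library held the highest value for 14.7% to 19.3% of genes and the lowest for 15% to 20%. The median deviation of the members from their mean over the 6 libraries was 0.11 (log2) in Ctrl 2 and -0.09 in Ctrl 3. The same median ran from -0.05 to 0.01 over the Akk libraries. Erythroid markers were highest in Ctrl 3, at a sum of 1031 CPM, and their part in its low values was not tested.

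Mrpl52 encodes a mitochondria-specific protein of the large subunit and had the most negative estimate of the members. It was at 29.6, 26.9 and 21.7 CPM in Ctrl and 19.9, 17.8 and 16.6 CPM in Akk. Every Akk library lay below every Ctrl library. The mean fell from 26.1 ± 4.01 to 18.1 ± 1.63 CPM (log2 fold change -0.52 ± 0.13 SE, 95% interval -0.81 to -0.24, adjusted p = 0.0181). The call was lost without Akk 2 (adjusted p = 0.0735), Akk 3 (0.0870) or Ctrl 1 (0.0802).

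Mrps9 is the homologue of bacterial S9, whose tail reaches the transfer RNA in the P site. Its values were 59.9, 58.2 and 61.0 CPM in Ctrl and 47.6, 50.4 and 48.2 CPM in Akk, with a tight spread in each group and no overlap. The mean fell from 59.7 ± 1.43 to 48.7 ± 1.46 CPM (log2 fold change -0.29 ± 0.08 SE, adjusted p = 0.0206). Without Akk 1, Akk 2, Akk 3 or Ctrl 1 the adjusted p was 0.0870, 0.0628, 0.0858 or 0.0532.

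Mrps30, a mitochondria-specific protein of the large subunit, was at 33.6, 41.3 and 38.1 CPM in Ctrl and 28.5, 29.4 and 31.0 CPM in Akk. All Akk libraries were below the lowest Ctrl library. The mean fell from 37.7 ± 3.87 to 29.6 ± 1.26 CPM (log2 fold change -0.35 ± 0.10 SE, adjusted p = 0.0344). The adjusted p was 0.128, 0.118 and 0.0786 without Akk 1, Akk 2 and Akk 3, and 0.0903 and 0.0595 without Ctrl 2 and Ctrl 3. On the log2 FPKM scales it rose to at most 0.105.

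Mrpl38, a large subunit protein at the central protuberance, was the member that rose. Ctrl held 27.1, 20.9 and 25.5 CPM and Akk 32.2, 31.9 and 31.8 CPM. The Akk libraries were nearly equal, and Ctrl 2 was the lowest of the 6. The mean went from 24.5 ± 3.21 to 31.96 ± 0.202 CPM (log2 fold change 0.38 ± 0.11 SE, 95% interval 0.14 to 0.62, adjusted p = 0.0334). Without Akk 1, Akk 2, Akk 3 or Ctrl 2 the adjusted p was 0.0921, 0.103, 0.0962 or 0.0759.

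Mrps12, the homologue of the decoding centre protein S12, was the member just outside the threshold, next to Mrps30 just inside it. It was at 12.0, 12.7 and 12.7 CPM in Ctrl and 18.7, 14.7 and 15.3 CPM in Akk. Each Akk library lay above all Ctrl libraries, with Akk 1 the highest. The log2 fold change was 0.38 ± 0.14 SE (adjusted p = 0.0782, edgeR), and it passed the threshold only with a gene length correction (adjusted p = 0.0413). Its head-to-head neighbour Sars2, the mitochondrial seryl-tRNA synthetase, had a log2 fold change of -0.07 (adjusted p = 0.767).

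**Figure D3:**
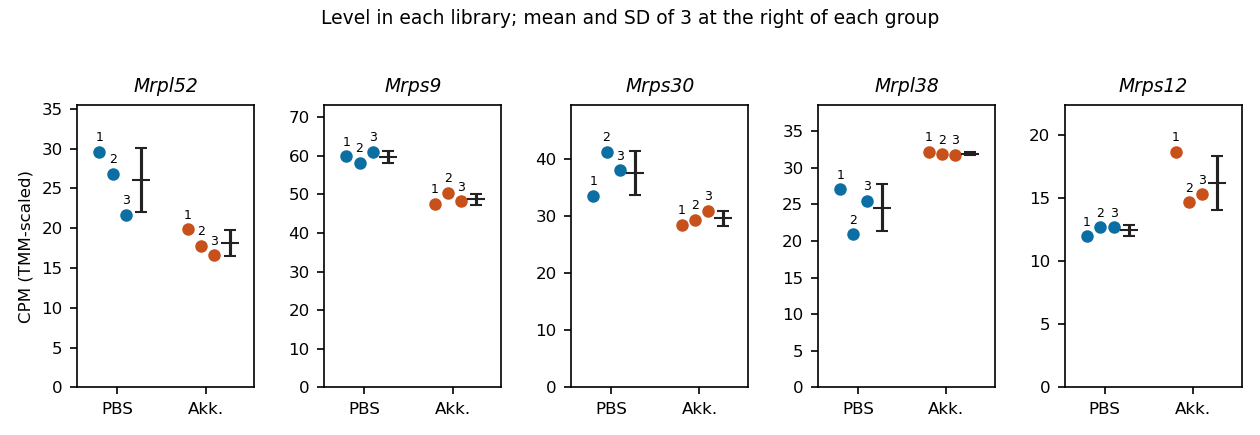
CPM in each of the 6 libraries (numbered points, Ctrl written PBS) for the 4 members past an adjusted p of 0.05 and for Mrps12, just outside it, with the mean and SD of each group. In all 5 genes the 3 Akk libraries lie on one side of the 3 Ctrl libraries.

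The other 9 members at an unadjusted p below 0.05 had adjusted p-values from 0.0928 to 0.165 and did not pass the test. Of these, Mrpl9 passed it without Ctrl 2 (adjusted p = 0.0274), and Mrpl30 (0.0468) and Mrpl48 (0.0431) passed it without Ctrl 3. Estimates above 0 were those of Mrpl19 (0.29), Mrpl51 (0.34), Mrpl10 (0.20), the base of the stalk that recruits translation factors, and Mrps10 (0.25). Estimates below 0 were those of Mrpl54 (-0.38), Mrpl48 (-0.34), Mrpl9 (-0.20), Mrpl30 (-0.25) and Mrps28 (-0.42), all as log2 fold changes.

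Per length, the members' levels covered a wide range. On the log2 FPKM scales 3 members passed the test between the groups (Mrpl38, Mrpl52 and Mrps9). Of all genes tested, 10.7% passed on log2(FPKM + 0.1) and 10.9% on log2(FPKM + 1). Mean FPKM over the 6 libraries went from 1.58 to 36.3 among the tested members. The median over all 78 members, with the untested Mrpl53 at 0, was 7.56. It was 9.03 FPKM for the 49 large subunit members, Mrpl53 included, and 6.04 FPKM for the 29 small subunit members. The highest large subunit level was that of Mrpl24, a protein near the exit tunnel, at 37.4 ± 1.46 FPKM in Ctrl and 35.2 ± 0.391 FPKM in Akk. Mrpl9 followed with 30.8 ± 3.57 and 27.0 ± 0.957 FPKM, and then Mrpl10, Mrpl52 and Mrpl2 with means of 21.6, 19.8 and 18.5 FPKM over all libraries. Of the small subunit, Mrps23 was highest at 27.4 ± 2.24 FPKM in Ctrl and 27.9 ± 2.75 FPKM in Akk. Below it came Mrps21 (20.9 FPKM), Mrps24 (18.4), Mrps15 (15.1) and Mrps12 (13.7). The lowest means were 2.19, 1.98 and 1.73 FPKM for Mrpl48, Mrpl17 and Mrpl47 and 2.48, 2.36 and 1.58 FPKM for Mrps22, Mrps10 and Mrps25. The gene length implied by counts and FPKM ran from 608 to 8633 bases, and it enters these levels directly. Counts of the tested members ran from 74 to 1566 per library.

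**Figure D4:**
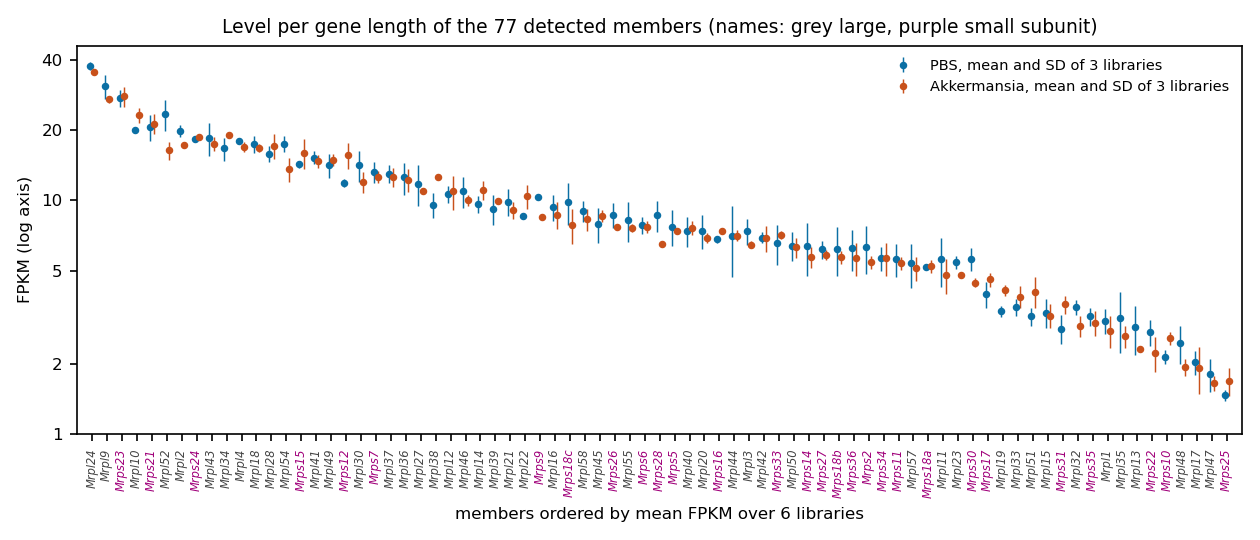
FPKM on a log axis for the 77 tested members, ordered by their mean over 6 libraries, with the mean and SD of 3 libraries for Ctrl (blue, written PBS) and Akk (orange); gene names are grey for the large and purple for the small subunit. Means run from 36.3 FPKM at the left to 1.58 FPKM at the right, and members of both subunits are spread along the order.

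Genes that work with the mitochondrial ribosome were taken from lists of their own, whose shares of called genes ran from 0 to 16.7% beside the 15.6% of all genes. Of 5 mitochondrial ribosomal proteins with other symbols (Dap3, Ptcd3, Chchd1, Aurkaip1 and Gadd45gip1) none passed the test by edgeR, DESeq2 or limma-voom, none had an unadjusted p below 0.05, and their median log2 fold change was -0.06. Dap3, a GTP-binding protein of the small subunit, was at 80.7 ± 4.28 CPM in Ctrl and 80.4 ± 1.54 CPM in Akk.

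Of 26 assembly factors 1 rose and 1 fell (7.69%, and 3 were called by DESeq2), and the median was 0.07. Malsu1, which binds the immature large subunit and keeps the small subunit from joining, fell from 17.7 ± 2.06 to 11.0 ± 0.579 CPM (log2 fold change -0.69 ± 0.14 SE, adjusted p = 0.00512), a call that held in all 16 alternatives. Mrm2, a methyltransferase of the large ribosomal RNA, rose from 4.11 ± 0.434 to 7.12 ± 0.965 CPM (0.79 ± 0.21, adjusted p = 0.0206). This call was lost without Akk 2 (0.0935), Akk 3 (0.0912) or Ctrl 1 (0.0814).

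None of the 16 tested translation factors passed the test by edgeR, DESeq2 or limma-voom, 1 had an unadjusted p below 0.05, and the median was -0.02. Of 20 mitochondrial aminoacyl-tRNA synthetases, which charge transfer RNAs with amino acids, 2 rose and 1 fell, a share of 15% that is close to that of all genes. DESeq2 called 4 of them. The largest estimate was that of Lars2, at 605, 318 and 125 CPM in Ctrl and 78.1, 93.5 and 78.6 CPM in Akk. With that spread in Ctrl it did not pass the test (log2 fold change -2.07 ± 0.65 SE, adjusted p = 0.123, edgeR). Ears2, the glutamyl-tRNA synthetase, rose from 22.0 ± 1.74 to 33.7 ± 0.848 CPM (log2 fold change 0.62 ± 0.10 SE, adjusted p = 0.0016), which held in all 16 alternatives. Cars2, the cysteinyl-tRNA synthetase, rose from 45.1 ± 2.69 to 57.7 ± 2.42 CPM (adjusted p = 0.0118, and 0.0653 without Akk 3 or 0.0556 without Ctrl 1). Yars2, the tyrosyl-tRNA synthetase, fell from 19.7 ± 0.481 to 14.7 ± 1.84 CPM (adjusted p = 0.0411, lost whichever library was left out, at most 0.172). With the gene length offset and on both log2 FPKM scales it was lost too, and 7 of 16 alternatives called it.

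Of 14 tested transcripts of mitochondrial DNA 1 fell (7.14%). This was mt-Rnr1, the small ribosomal RNA, at 231 ± 10.9 CPM in Ctrl and 198 ± 5.81 CPM in Akk (log2 fold change -0.22 ± 0.07 SE, adjusted p = 0.0410). It was lost in 5 of the 6 fits without 1 library, with adjusted p-values up to 0.185. It was also lost with the gene length offset, on both log2 FPKM scales and with no filter, and 6 of 16 alternatives in all called it. Poly(A) selection limits what it says of ribosomal RNA. Of 12 regulators of mitochondrial transcription and biogenesis 1 rose and 1 fell, a share of 16.7%. Tfb2m, needed to start transcription of mitochondrial DNA, fell from 56.6 ± 2.75 to 37.4 ± 0.613 CPM (log2 fold change -0.60 ± 0.08 SE), with an adjusted p of at most 0.00609 over the 16 alternatives. Polrmt, the mitochondrial RNA polymerase, rose from 42.3 ± 2.91 to 52.7 ± 1.73 CPM (adjusted p = 0.0236, and up to 0.101 without Akk 3). Its adjusted p was also above 0.05 without Akk 1 (0.0552) and Akk 2 (0.0799).

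Head-to-head starts and some promoter motifs were more frequent among the members than among all tested genes, without a test. In GENCODE M21 they lie on 17 chromosomes, and 26 of 78 (33.3%) start head to head within 1 kb of another protein-coding gene, against 14.7% of 12041 tested protein-coding genes. Of 24 distinct pairs of this kind with both genes tested, 13 had estimates of the same sign. None of the members called has such a neighbour, so no pair could have both genes called. Of 25 partner genes tested, 2 were called higher and 1 lower, beside the 15.6% of all genes called. These were Ska3, a kinetochore protein beside Mrpl57, Zfp189 beside Mrpl50, and Gga3, a sorting adaptor beside Mrps7, all named after their values were seen. Ska3 fell from 5.75 ± 1.16 to 2.77 ± 0.305 CPM (adjusted p = 0.0115, and 0.0554 without Akk 2), while Mrpl57 had a log2 fold change of -0.08. Zfp189 rose from 2.54 ± 0.0545 to 4.44 ± 0.634 CPM (adjusted p = 0.0419, lost whichever library was left out), and Gga3 from 90.2 ± 7.65 to 108 ± 0.218 CPM (adjusted p = 0.0326, lost in each such fit but the one without Ctrl 3, and on both log2 FPKM scales). Their neighbours Mrpl50 and Mrps7 had log2 fold changes of -0.03 and -0.08.

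RefSeq promoter windows (GRCm38.p6, 250 bases before to 50 after the start) were found for 69 of 78 members, 75 windows in all. Each was searched on both strands for 9 short motifs. CCGGAAG, the core bound by ETS factors such as GABPA, was in 34.7% of the members' windows, against 17.4% of 12851 windows of tested genes and 8.86% of all 32851 windows. The palindromic NRF-1 motif with its middle base left free was in 17.3%, 9.60% and 4.60% of the same windows, and AAGATGGC, the YY1 motif, in 16.0%, 4.37% and 2.75%. The GC box GGGCGG was in 52.0% of the members' windows and 59.9% of those of tested genes, and CCAAT was in 30 of the 75 members' windows and 37.7% of those of tested genes. Shares in members' windows and in those of tested genes were 9.33% and 9.84% for the E-box CACGTG, 2.67% and 2.99% for the cyclic AMP response element TGACGTCA, 6.67% and 7.27% for the TATA box TATAAA and 6.67% and 5.88% for the heat shock element GAANNTTC. A match is a run of letters and not a shown binding site. The 42 members with an ETS, NRF-1 or YY1 match had a median log2 fold change of -0.07 with 2 lower (4.76%). The 26 tested members with none had a median of -0.11 with 1 lower (3.85%), beside the 15.6% of all genes called.

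The windows of the members that fell are shown because these 3 genes, with the same direction of change, differ in their ETS and NRF-1 matches. Capitals mark the ETS core or the NRF-1 motif on either strand, from 150 bases before to 20 bases after the RefSeq start (GRCm38.p6). Mrpl52 lies at chr14:54426759-54426928 on the + strand, Mrps9 at chr1:42851083-42851252 on the + strand and Mrps30 at chr13:118387233-118387402 on the - strand.
Mrpl52: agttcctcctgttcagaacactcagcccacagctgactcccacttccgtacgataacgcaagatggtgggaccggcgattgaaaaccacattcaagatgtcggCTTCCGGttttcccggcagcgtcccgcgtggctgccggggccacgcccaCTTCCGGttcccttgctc
Mrps9: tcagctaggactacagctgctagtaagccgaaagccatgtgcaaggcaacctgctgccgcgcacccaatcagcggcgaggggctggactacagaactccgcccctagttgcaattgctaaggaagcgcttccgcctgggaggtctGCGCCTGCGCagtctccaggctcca
Mrps30: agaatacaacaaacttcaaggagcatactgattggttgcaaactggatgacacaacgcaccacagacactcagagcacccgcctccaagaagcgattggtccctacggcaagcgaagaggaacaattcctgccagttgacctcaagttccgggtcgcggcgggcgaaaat
The Mrpl52 window holds 2 ETS cores and the Mrps9 window 1 NRF-1 motif, and no ETS, NRF-1 or YY1 motif was in the Mrps30 window. Matches to the other motifs searched are not marked. Among them, CCAAT is in the Mrps9 window and, on the opposite strand, in the Mrps30 window. On its opposite strand the Mrps9 window also holds the GC box. Mrpl38 has no entry shown.

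Mrpl53 was the member not tested. Its count was 0 in all 6 libraries, which allows up to 3 counts, or about 0.2 CPM, per library if its reads were counted. In GENCODE M21 its exons share bases with the same-strand gene Gm42688, which had 37, 43 and 72 counts in Ctrl and 78, 68 and 64 in Akk (log2 fold change 0.53, adjusted p = 0.218). Nme3, which shares exon bases with Mrps34 on the same strand, was at 0 in all libraries as well, and how reads in shared exons were counted is not stated. Reads of Mrpl53 and of Gm42688 cannot be told apart from these counts. Of the 78 members 33 share exon bases with another gene, 28 with one on the opposite strand and 8 with one on the same strand. No source used here states the strand setting of the counting, so counts of such genes may be divided or merged. Mrps30 overlaps the antisense B430218F22Rik, which had 0 counts in each Ctrl library and 4, 0 and 1 in Akk.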

How the data were processed

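For 6 poly(A) RNA-seq libraries, the deposited values are whole-number counts and FPKM, which the authors scaled for library size and gene length. The submitters' processing notes name the build GRCm39. The aligner, counter, annotation and strand setting were not given in the sources used.

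The filterByExpr function of edgeR 4.0.16 (R 4.3.3) kept 15138 of the 28006 genes with a count (at least 10 counts in enough libraries and 15 in total). After TMM scaling, Akk was tested against Ctrl by the robust quasi-likelihood test of edgeR (two-sided, Benjamini-Hochberg adjustment, threshold 0.05). Fold changes are Akk over Ctrl. The total counts and the 3 libraries per group limit the precision. The labels call the libraries biological replicates but name no animals, so p-values measure the spread between these libraries. Gene overlaps and neighbours came from GENCODE M21 by gene name, and promoter windows from RefSeq. FPKM gave the levels per length and, as log2(FPKM + 1) and log2(FPKM + 0.1) with limma 3.58.1, alternatives. The other alternatives were DESeq2 1.42.0, limma-voom, other scalings and filters, a gene length offset, a replicate block and leaving out each library.

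The members, gene lists and tests were chosen with earlier results of these data known. Members named with values are those past the threshold or next to it, the 5 highest and 3 lowest of each subunit by FPKM, those removed by the filter, and Mrps18a, Mrps18b, Mrps18c, Mrps30 and Mrps36. From each pathway list up to 3 genes past the threshold with the smallest p are named. The other genes were chosen after their values were seen.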

Additional observations from a re-analysis of the deposited data

How the results depend on the processing

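DESeq2, limma-voom, RLE size factors, library totals, no filter and a 1 CPM filter called the same 4 members. These fits called 15.2% to 16.2% of all genes, except 10.7% with no filter and 16.8% with the 1 CPM filter. The gene length offset called 5 members, 2 of them higher, and 15.8% of all genes, and gave a small subunit median of -0.0305. That median was -0.0405 on log2(FPKM + 0.1) and -0.0374 on log2(FPKM + 1). Leaving out 1 library gave 0 to 5 calls, 0 to 1 higher and 0 to 4 lower. There were 0 calls without Akk 2 or Akk 3 in edgeR, where 10 and 7 members had an unadjusted p below 0.05, and 5 without Ctrl 3. Without Akk 2, Akk 3 or Ctrl 3, 7.28%, 7.47% or 16.3% of all genes were called, against 15.6% with all libraries. Over the fits that left out 1 library, the median ran from -0.1319 to -0.0217 for all members. It ran from -0.1595 to -0.024 for the large and from -0.0667 to -0.0131 for the small subunit. The log2 ratio difference, -0.0137 with all libraries, ran from -0.0564 to 0.0082. It was above 0 without Ctrl 1 (0.0071) and Ctrl 2 (0.0082). The cause of these shifts was not tested. The ratio of summed FPKM was added after seeing the data, and DESeq2, limma-voom, the filters and log2 FPKM give no such ratio. With the replicate block 1 member was higher and 3 lower, where 16.8% of all genes were called. The median of the members was then -0.0649, while Zfp189 (adjusted p = 0.0509) and mt-Rnr1 were no longer called. Deviations of log2 CPM from the group mean correlated across genes at 0.085, 0.077 and 0.03 between Akk and Ctrl libraries of the same number. Each of these was the highest for its number, and libraries of different numbers gave -0.072 to 0.002. The labels do not say that the numbers pair the mice, so the block was kept as an alternative.
Estimates near 0 changed sign for single members. Mrps18a, -0.0025 in the test reported, was 0.0029 with DESeq2, 0.0027 with RLE size factors, 0.0082 with the gene length offset, 0.0046 with library totals, 0.0055 on log2(FPKM + 0.1), 0.0049 on log2(FPKM + 1) and 0.0127 with no filter. Mrpl50 was 0.0094 with the gene length offset. Without 1 library the log2 fold change ran from -0.0532 to 0.039 for Mrps18a, from -0.2696 to 0.0654 for Mrps18b, from -0.1319 to 0.067 for Mrpl50, from -0.2341 to 0.0739 for Mrpl57, from -0.1449 to 0.0014 for Mrps7, from -0.0336 to 0.1412 for Mrps21, from -0.0519 to 0.0874 for Mrps23 and from -0.0131 to 0.0393 for Mrps24.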

Other observations

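Ict1os, a gene antisense to Mrpl58, had 8, 4 and 9 counts in Ctrl and 28, 29 and 18 in Akk. It rose by a log2 fold change of 1.89 ± 0.46 SE (adjusted p = 0.0155, edgeR quasi-likelihood test), with every Akk library above every Ctrl library, and the call was lost without Akk 1 (0.0632) or Akk 2 (0.0791). Mrpl58, which encodes the peptidyl-tRNA hydrolase that frees stalled mitochondrial ribosomes, had a log2 fold change of -0.13 (adjusted p = 0.493). Without a stated strand setting, reads of these genes cannot be told apart where they overlap. Both were named after their values were seen.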
